A study of Mus musculus with 17 samples.

Results

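Integrins are cell surface receptors that hold cells to matrix and to other cells. The genes described here encode 10 of their subunits, namely the α subunit genes Itga4, Itga5, Itga6, Itgal and Itgav and the β subunit genes Itgb1, Itgb2, Itgb3, Itgb5 and Itgb7, listed by name out of 37620 genes in the table. All 10 passed the filter on low values that left 12158 genes for testing, a TPM of 1 or more in at least 3 libraries. TPM is the share of a library's transcripts that a gene takes, corrected for gene length and with the same total in every library, so levels of different genes can be set side by side. No difference of any of the 10 genes passed the test after adjustment. The lowest unadjusted p belonged to Itgb5 in wild-type cells given transforming growth factor beta 1 (TGF-β1), where its level was 151.5 ± 82.8 TPM (SD, n = 4) against 41.1 ± 30.9 in controls (n = 5) and that of Itgb2, the most abundant member, was 223.1 ± 75.9 against 386.6 ± 152.4.

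The 17 libraries came from bone marrow-derived macrophages of C57BL/6J mice (H-2b), grown for 7 days with 50 ng/ml of M-CSF, the growth factor of this lineage, and the treatment was 5 ng/ml of TGF-β1 for 5 days. By the titles, 5 libraries are controls and 4 are TGF-β1 treated in the Smad3 wild-type genotype, and 5 are controls and 3 treated in the Smad3 knockout. Smad3 acts in the nucleus as a transcription factor downstream of the TGF-β receptors, and the study asked which genes of the passage from macrophage to myofibroblast depend on it. The treatment protocol is worded alike for controls and treated samples, so it is not known from the labels whether controls were cultured for those 5 days too. The knockout allele, the age of the mice and the number of animals behind the libraries are likewise not given in the sources read. The sources also do not settle whether a library holds 1 cell or many. Libraries were treated as replicates, and their p-values measure only the spread between them. That spread may be technical, or may lie among cells from an unknown number of animals.

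An integrin is a pair of 1 α and 1 β subunit, and the choice of partners sets the ligand. The β2 subunit is found on leukocytes, where with αL it binds intercellular adhesion molecules and with αM complement fragments and fibrinogen. The β1 subunit pairs with many α subunits, among them α4 (a receptor for vascular cell adhesion molecule and fibronectin), α5 (fibronectin) and α6 (laminin). The αv subunit with β3 or β5 binds vitronectin, osteopontin and the apoptotic cell bridge MFG-E8, and αv integrins, above all those with β6 or β8, can release active TGF-β from its latent complex. The β7 subunit pairs with α4 in gut homing lymphocytes and with αE.

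Promoters of 6 of the 10 genes were found in the RefSeq table (build GRCm38.p6), and the 250 bases before the start site are printed for a pair of them. Itgb5 is shown because it had the largest difference of the group with TGF-β1, and Itgb1 because it was among the steadiest members and its window holds the most matches to the Smad-binding core. The Itgb5 window is chr16:33829415-33829664 and the Itgb1 window chr8:128685404-128685653, both on the plus strand and printed 5′ to 3′. Capitals mark CAGAC (the Smad-binding core), GGGCGG (the GC box) and GAGGAA (a core bound by the myeloid factor PU.1) on either strand.
Itgb5: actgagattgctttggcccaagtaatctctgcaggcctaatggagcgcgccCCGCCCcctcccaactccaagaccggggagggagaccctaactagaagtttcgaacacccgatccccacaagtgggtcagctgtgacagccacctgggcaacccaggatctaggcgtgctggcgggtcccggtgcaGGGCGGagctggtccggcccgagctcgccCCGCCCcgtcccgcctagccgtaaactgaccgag
Itgb1: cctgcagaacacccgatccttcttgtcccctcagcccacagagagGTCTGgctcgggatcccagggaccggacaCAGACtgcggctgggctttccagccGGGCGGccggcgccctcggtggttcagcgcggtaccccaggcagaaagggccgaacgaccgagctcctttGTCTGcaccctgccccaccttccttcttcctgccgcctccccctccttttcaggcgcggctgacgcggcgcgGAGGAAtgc
The Itgb5 window (65.2% G or C) holds 3 GC boxes and no CAGAC. The Itgb1 window (68.0% G or C) holds 3 matches to CAGAC, 1 GC box and 1 GAGGAA. Over all 32851 promoter windows of this length, 42.2% hold CAGAC, 32.7% GGGCGG and 23.3% GAGGAA, while a further GC-rich Smad motif, GGCGC, which can overlap the GC box and is not capitalised, is in 32.0%. Among the 6 member promoters these were present in 3 (Itga4, Itgb1, Itgb7), 4 (Itga4, Itga5, Itgb1, Itgb5), 3 (Itga5, Itgav, Itgb1) and 5 (all but Itga5). The 6 windows held 55.6% to 68.0% G or C, beside a median of 52.4% over all windows. The part of G and C content in these counts was not tested. A match is a run of letters and not a measured binding site.

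The libraries were checked against their labels. The summed TPM of 8 macrophage markers was 7643 to 43170 per library, of which Lyz2 (mean 18810 TPM) was the largest part. Mertk and Mrc1, from the same list, reached TPM 1 in 6 and 8 of the 17 libraries. All 4 megakaryocyte markers were listed at 0 throughout. The highest sums of marker lists were 132.2 TPM for neutrophils (S100a8 alone, with the other 7 markers at 0), 46.8 for endothelium and 11.01 for mast cells (Kit alone). For dendritic cells the highest sum was 5.25, for T, B and NK cells 1.97 and for fibroblasts 0.02. Kdr, an endothelial marker, reached TPM 1 in 10 libraries. Smad3 reached TPM 1 in 2 of 9 libraries labelled wild type and in 3 of 8 labelled knockout, so its transcript does not bear out the labels, and every direction between genotypes below rests on the labels alone. The depth of each library is unknown, because the unit does not keep it. Between 7269 and 10307 genes reached TPM 1 per library, and 6 of the 17 libraries (wild-type controls 3, 4 and 5, wild-type TGF-β1 library 3, knockout control 2 and knockout TGF-β1 library 2) listed over 10% of moderately expressed genes at 0. Where a library holds many cells, fewer cells of a type and less RNA per cell cannot be told apart. Csf1r, the receptor for M-CSF, was the only marker or list gene called in any comparison. Of the 8 macrophage markers 5 had positive and 3 negative differences in the effect averaged over the genotypes, the negative ones Cd68 (-0.44 ± 0.21), Mertk (-0.94 ± 0.85) and Mrc1 (-1.23 ± 0.85). Csf1r rose in that effect, with 367.0 ± 188.4 and 854.5 ± 272.5 TPM in the wild-type groups and 340.5 ± 119.3 and 842.4 ± 245.1 in the knockout groups (log2 1.32 ± 0.27, adjusted p = 0.0244). That call held in 11 of 17 fits without 1 library; it ended without wild-type TGF-β1 library 3 or 4, knockout control 2 or 5 or knockout TGF-β1 library 2 or 3, and without the 6 libraries rich in zeros (log2 1.04, adjusted p = 0.290).

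The 10 genes spanned a wide range of levels, with Itgb2 far above the rest. Itgb2 (ENSMUSG00000000290, chromosome 10) had a mean of 334.4 TPM over the 17 libraries and a lowest value of 124.68. Itgb1 (ENSMUSG00000025809, chromosome 8) followed at 140.6, Itgav (ENSMUSG00000027087, chromosome 2) at 103.4, Itga5 (ENSMUSG00000000555, chromosome 15) at 82.2 and Itgb5 (ENSMUSG00000022817, chromosome 16) at 75.3 TPM. These 5 genes were at TPM 1 or more in all 17 libraries. Itga6 (ENSMUSG00000027111, chromosome 2) averaged 43.5 TPM, Itgal (ENSMUSG00000030830, chromosome 7) 24.01 and Itga4 (ENSMUSG00000027009, chromosome 2) 12.1, each with at least 1 library under TPM 1. Itgb7 (ENSMUSG00000001281, chromosome 15), with a mean of 10.54 TPM, was listed at 0 in 10 libraries, and Itgb3 (ENSMUSG00000020689, chromosome 11), with a mean of 1.72, reached TPM 1 in 7.

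**Figure D1:**
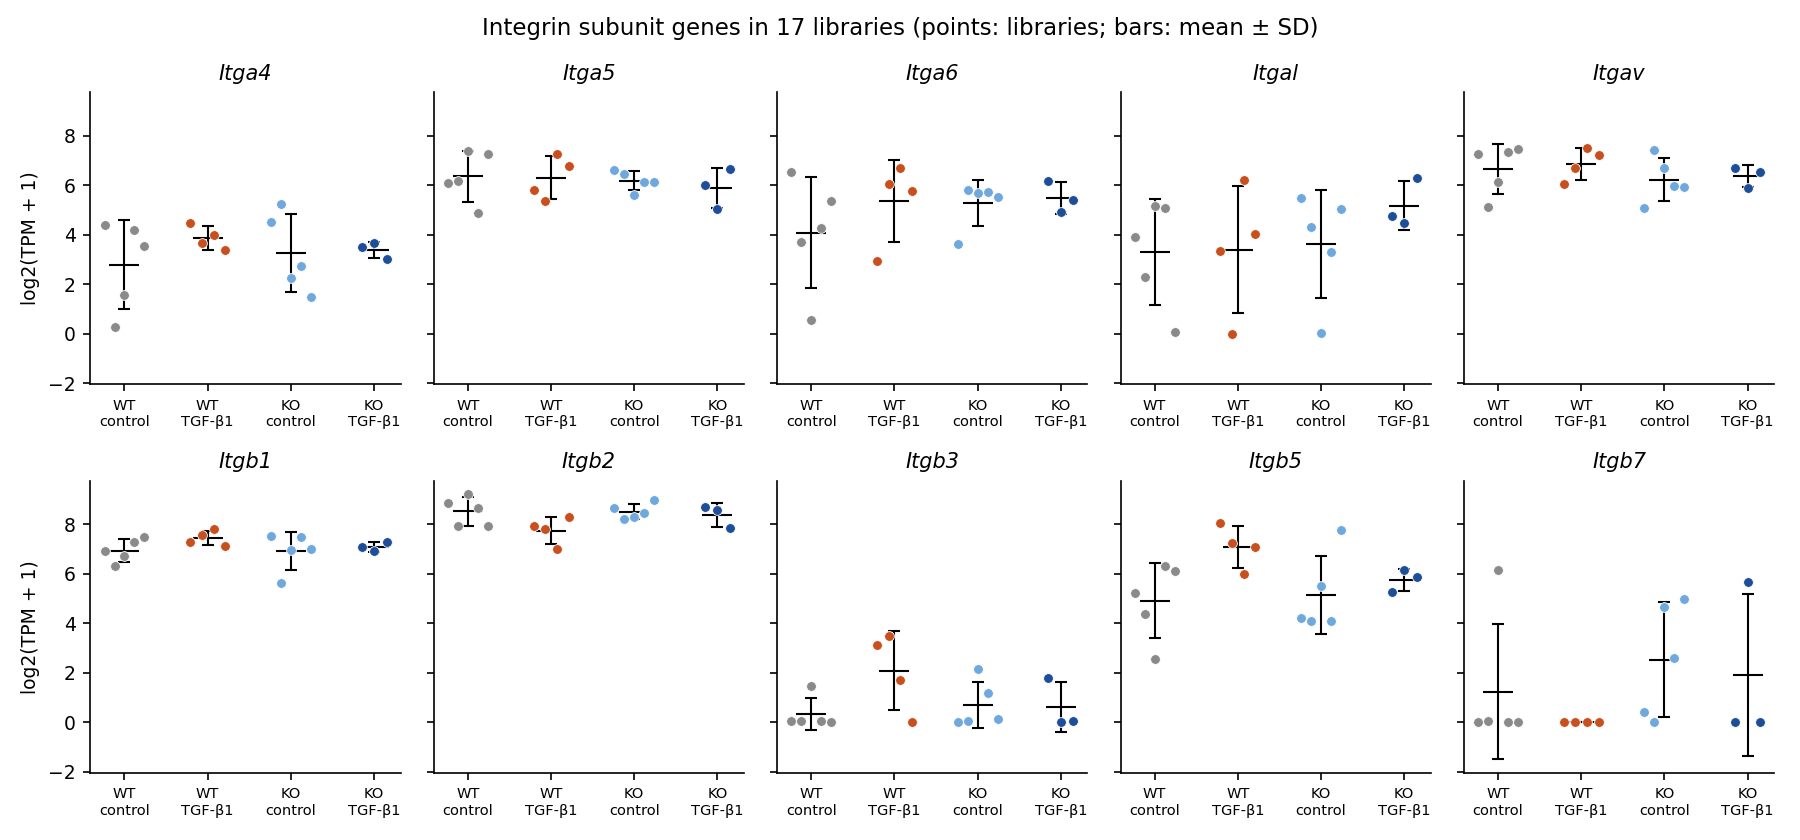
Level of each of the 10 integrin subunit genes as log2(TPM + 1) on the vertical axis, by group as labelled (WT and KO, the Smad3 genotypes as labelled), each point a library and the bars mean ± SD over 5, 4, 5 and 3 libraries. Itgb2 and Itgb1 have the smallest spread within groups over the 4 groups together, though Itgb1 runs from 48.47 to 182.73 TPM in knockout controls, Itgal and Itgb7 spread over most of the axis, and for no gene do the libraries of a treated group lie wholly above or below those of its control.

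The members differed widely in how much libraries of 1 group varied. The standard deviation of log2(TPM + 1) within groups was 0.487 for Itgb2 and 0.522 for Itgb1, which placed them at the 6.1 and 7.4 percentile of all tested genes. It was 0.799 for Itga5, 0.822 for Itgav, 1.067 for Itgb3, 1.296 for Itgb5, 1.353 for Itga4 and 1.587 for Itga6. This scale compresses values near 0, so the spread of the scarce Itgb3 is understated. With 0.1 in place of 1 added to TPM, the standard error of its wild-type difference rose from 0.72 to 1.62. That of Itgb5 went from 0.81 to 0.86. Itgal (2.132, percentile 87.7) and Itgb7 (2.368, percentile 95.1) were far more variable.

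The set, chosen with earlier results of these data known, held most of the integrin transcript. The 10 members made up 85.7% to 99.5% of the TPM of 26 integrin subunit genes in a library. Of the other 16, 7 were listed at 0 in all libraries (Itgb6 and Itgb8, the partners of αv best known for TGF-β activation, among them) and 11 never reached TPM 1. Itgam, the αM subunit, was the only other subunit gene present throughout, at 3.28 to 140.99 TPM, and Itgax, the αX subunit, reached TPM 1 in 4 libraries. Itga2b, the platelet subunit, was at 25.69 TPM in knockout TGF-β1 library 3 and at no more than 0.03 elsewhere.

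Within a library Itgb2 was the most abundant β subunit gene in 15 of 17. The exceptions were both wild-type with TGF-β1, library 1, where Itgb5 led, and library 3, where Itgb1 led. Among α subunits Itgav was highest in 10 libraries, Itga5 in 5 and Itgam in 2. The summed α TPM exceeded the summed β TPM in 3 libraries.

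The make-up of the β subunit transcripts is shown for each library. Itgb5 contributed 0.6% to 14.1% of β subunit TPM in wild-type controls and 15% to 39.5% with TGF-β1, ranges that did not overlap. In libraries labelled knockout it contributed 2.9% to 24.5% in controls and 6.4% to 12.9% with TGF-β1, where the ranges did overlap. Itgb2 contributed 49.4% to 76.9% and 30.5% to 53.3% in the wild-type groups and 57.2% to 82.0% and 51.7% to 70.5% in the knockout groups. The Itgb5 to Itgb2 ratio was 0.008 to 0.286 in wild-type controls and 0.428 to 1.085 with TGF-β1, against 0.045 to 0.429 and 0.091 to 0.25 in libraries labelled knockout. These shares and ratios were chosen after the values were seen and were not tested, and a rise in one share lowers the others.

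**Figure D2:**
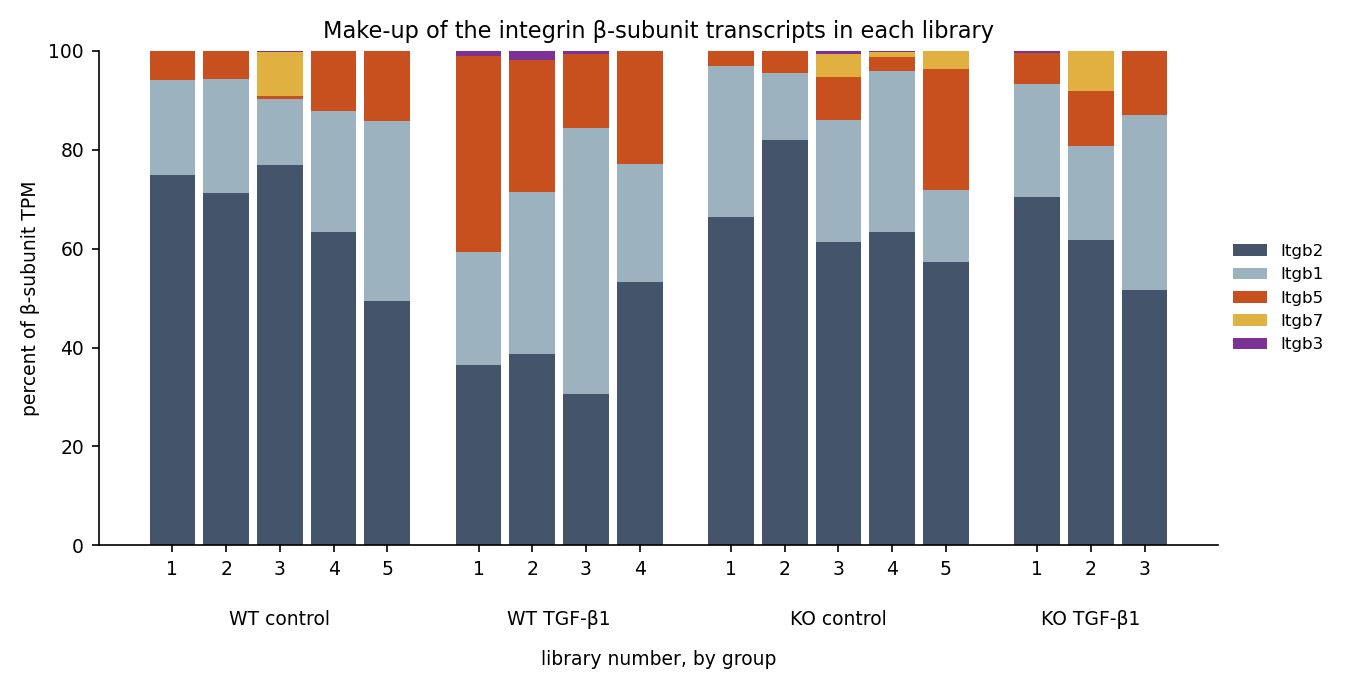
Percent of the summed TPM of Itgb1, Itgb2, Itgb3, Itgb5 and Itgb7 that each gene contributed, 1 stacked bar per library in the 4 labelled groups (WT, Smad3 wild type; KO, Smad3 knockout). Itgb5 takes 15% to 39.5% in the 4 wild-type TGF-β1 libraries and at most 14.1% in the 5 wild-type controls, and knockout control 5 reaches 24.5%.

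TGF-β1 was first compared with control in wild type. Of the 10 members, 0 passed at an adjusted p under 0.05 (limma, Benjamini-Hochberg over all tested genes), where 0.181% of all tested genes passed. At an unadjusted p under 0.05 there were 3, Itgb5 and Itgb3 on the higher side and Itgb2 on the lower, beside 9.97% of all genes (6.7% higher and 3.27% lower). Treated and control libraries did not overlap for 0 members and for 2.79% of all genes. The log2 differences were positive for 7 members and negative for 3, with a median of 0.35 beside 0.09 over all genes and 53.8% positive. Their standard errors ran from 0.34 for Itgb2 to 1.4 for Itgb7, so only the steadier genes could show a small difference. A simple average over both genotypes gave 0 members called (0.378% of all genes) and 1 at an unadjusted p under 0.05, Itgb5, where 10.8% of all genes had one. This average shares its wild-type libraries with the first comparison.

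**Figure D3:**
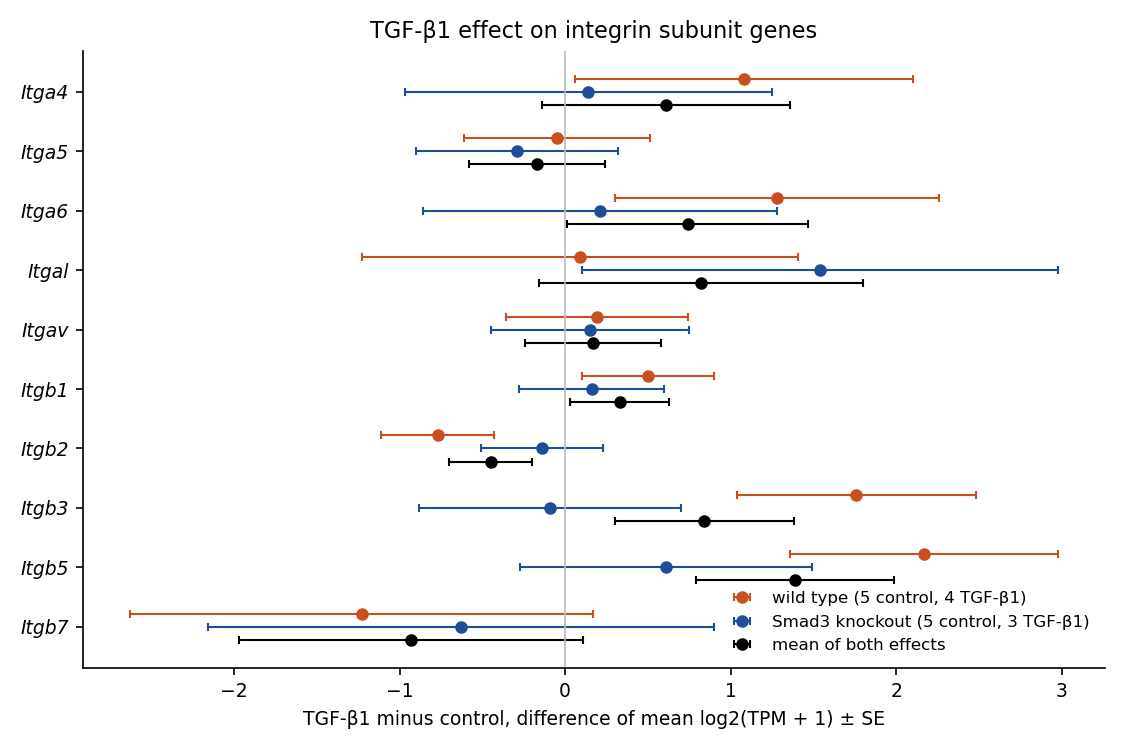
Difference of mean log2(TPM + 1), TGF-β1 minus control, on the horizontal axis for each member, with bars of 1 standard error from the limma fit; orange, wild type, blue, libraries labelled Smad3 knockout, black, the mean of both. The wild-type points of Itgb5 (2.17) and Itgb3 (1.76) lie farthest to the right and that of Itgb7 (-1.23), with an error of 1.4, farthest to the left.

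The largest positive differences in wild type were those of Itgb5 and Itgb3, whose products pair with αv, while that of Itgav itself was 0.19. Itgb5, whose product pairs with αv alone, was at 36.15, 19.42, 4.87, 76.96 and 68.03 TPM in wild-type controls 1 to 5 and at 261.26, 151.53, 61.39 and 131.92 in TGF-β1 libraries 1 to 4. Treated libraries 1, 2 and 4 lay above every control, and library 3 lay below controls 4 and 5. The log2 difference was 2.17 ± 0.81 (SE; limma unadjusted p = 0.0143, adjusted p = 0.364). It was 1.59 to 2.54 when 1 library was left out, and only without TGF-β1 library 1 was the unadjusted p over 0.05 (limma difference 1.85, adjusted p = 0.584). Without the 6 libraries rich in zeros it was 2.66. In knockout controls Itgb5 was at 17.63, 16, 44.05, 16.04 and 213.18 TPM and in knockout TGF-β1 libraries at 37.28, 68.74 and 56.3. Control 5 stood above all 3 treated libraries, and the other 4 controls lay at 44.05 or less. The difference there was 0.61 ± 0.88, 1.27 without control 5 and 0.35 without control 2, and that of the averaged effect 1.39 ± 0.60 (adjusted p = 0.385). With a cell cycle covariate described later they were -0.06 and 0.70 (limma unadjusted p = 0.380 for the averaged effect).

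Itgb3, the other β partner of αv described here, known from platelets and osteoclasts, was scarce. It was at 0.02, 0.02, 1.76, 0.03 and 0.01 TPM in wild-type controls and at 7.74, 10.13, 2.27 and 0 with TGF-β1. Treated libraries 1, 2 and 3 exceeded every control, while in library 4 the gene was listed at 0. The log2 difference was 1.76 ± 0.72 (unadjusted p = 0.0246, adjusted p = 0.434), and since the values are low it moved to 0.48 with a pseudocount of 10 and 3.33 with 0.1. Leaving out 1 library gave 1.30 to 2.46, the lowest without TGF-β1 library 2, and the unadjusted p was under 0.05 in 7 of these 9 fits. With the knockout label the values were 0, 0.02, 3.37, 1.26 and 0.08 TPM in controls and 2.44, 0 and 0.02 with TGF-β1, a difference of -0.09 ± 0.79. Megakaryocyte markers were at 0 in all these libraries. Itga2b, the platelet subunit, was at 25.69 TPM in knockout TGF-β1 library 3, where Itgb3 was at 0.02, and at no more than 0.03 elsewhere. The part of that lineage in the Itgb3 values was not tested.

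Itgav, their common partner, was at 150.6, 33.83, 69.14, 159.81 and 175.95 TPM in wild-type controls and 64.52, 100.78, 177.71 and 147.03 with TGF-β1. High and low libraries occurred in both groups, and the difference was 0.19 on the log2 scale, within its error. The knockout values were 33.02, 171.38, 101.4, 61.87 and 59.33 TPM in controls and 101.67, 57.67 and 91.7 with TGF-β1, again overlapping. Itgav exceeded the sum of Itgb3 and Itgb5 in 13 of 17 libraries. The ratio of Itgav to that sum was 1.74 to 10.43 in wild-type controls and 0.24 to 2.79 with TGF-β1, and 0.28 to 10.7 and 0.84 to 2.56 in libraries labelled knockout.

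The leukocyte subunit gene Itgb2 had the only negative difference with an unadjusted p under 0.05. Its values were 462.13, 240.31, 595.44, 397.23 and 237.89 TPM in wild-type controls and 240.78, 218.62, 124.68 and 308.21 with TGF-β1. Treated libraries 2 and 3 lay below every control, and libraries 1 and 4 lay within the control range. The log2 difference was -0.77 ± 0.34 (unadjusted p = 0.0357, adjusted p = 0.466). It ranged from -0.95 to -0.52 with 1 library left out, with an unadjusted p under 0.05 in 4 of these 9 fits, and was -0.40 without the 6 libraries rich in zeros. In libraries labelled knockout Itgb2 was at 394.61, 293.63, 309.65, 346.24 and 496.97 TPM in controls and 411.7, 381.44 and 225.41 with TGF-β1, a difference of -0.14 ± 0.37.

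The α partners of β2 were far less abundant than Itgb2 and differed between libraries. Itgal, the αL subunit of the lymphocyte function antigen, was at 13.85, 3.86, 34.46, 32.68 and 0.04 TPM in wild-type controls and 9.16, 0, 71.87 and 15.03 with TGF-β1. Each of these groups held both a library near 0 and one at 34.46 TPM or more. The knockout values were 43.99, 18.65, 0.01, 8.9 and 31.72 TPM in controls and 26.05, 21.21 and 76.77 with TGF-β1. Its log2 difference was 0.09 ± 1.32 in wild type and 1.54 ± 1.44 in libraries labelled knockout, the latter 0.64 without control 3. T, B and NK cell markers summed to at most 1.97 TPM in any library, and their part in the Itgal values was not tested. Itgam averaged 84.5 ± 52.6 TPM in wild-type controls and 64.4 ± 13.7 with TGF-β1 (log2 -0.15 ± 0.74), a difference that was 0.11 without the 6 libraries rich in zeros. Itgal exceeded Itgam in 3 of 17 libraries, and Itgb2 exceeded the sum of Itgal, Itgam, Itgax and Itgad in 16 of 17.

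**Figure D4:**
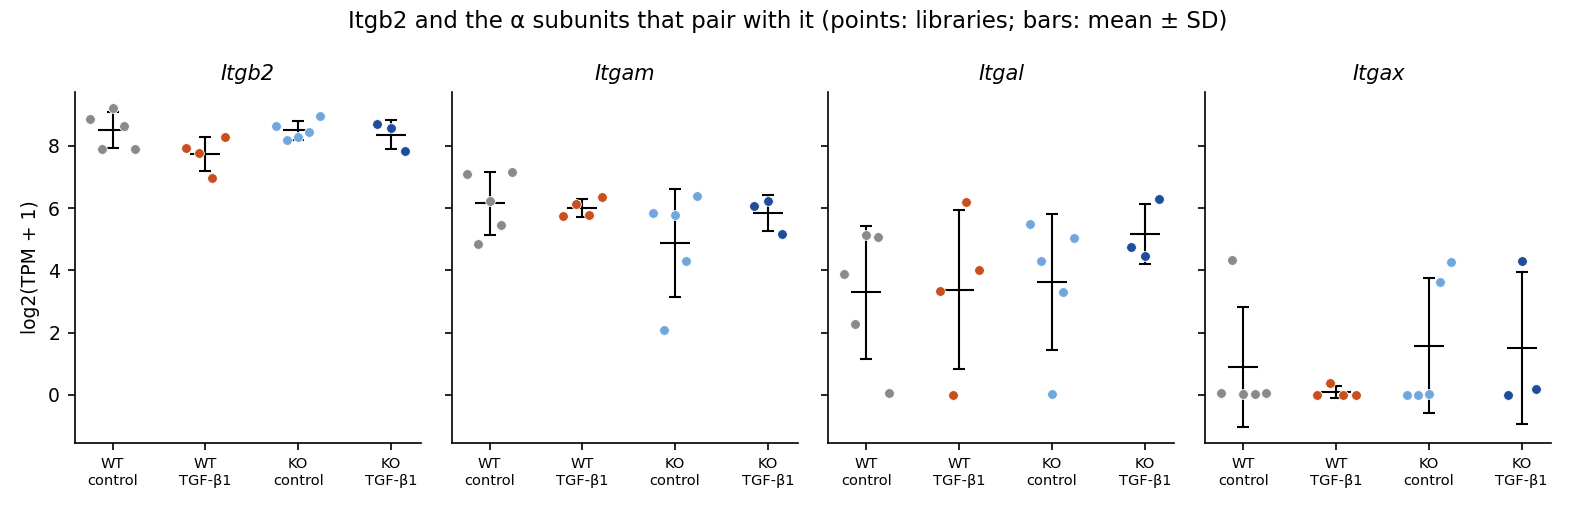
Level of Itgb2 and of its α partners Itgam, Itgal and Itgax as log2(TPM + 1) on the vertical axis, by labelled group (WT and KO, the Smad3 genotypes), each point a library and the bars mean ± SD. Itgb2 lies above its partners, Itgal falls to about 0 in single libraries of 3 groups, and Itgax reaches TPM 1 in 4 libraries.

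Itgb1 and its partner Itga5 had small differences. Itgb1 was at 119.19, 77.82, 102.76, 152.81 and 175.17 TPM in wild-type controls and 152.24, 186.43, 220.16 and 138.54 with TGF-β1. Treated libraries 2 and 3 exceeded every control, and the difference was 0.50 ± 0.40 (adjusted p = 0.741). Its knockout values were 182.73, 48.47, 124.12, 177.73 and 127.6 TPM in controls and 132.83, 118.07 and 154.03 with TGF-β1, so the treated libraries lay inside the control range. Its means there were 132.1 ± 54.1 and 135.0 ± 18.1 TPM. Itga5, the fibronectin receptor subunit, was at 66.58, 69.79, 165.99, 28.6 and 150.59 TPM in wild-type controls and 55.36, 39.63, 151.53 and 108.75 with TGF-β1, all treated values inside the control range. It averaged 96.3 ± 59.1 and 88.8 ± 51.2 TPM in the wild-type groups and 73.4 ± 18.8 and 64.2 ± 33.2 in the knockout groups, with a wild-type log2 difference of -0.05.

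Itga6 and Itga4 had positive differences in wild type that were about as large as their errors. Itga6, the laminin receptor subunit, was at 90.45, 12.07, 0.45, 18.06 and 40.23 TPM in controls and 6.65, 64.69, 100.8 and 53.34 with TGF-β1. Both groups held libraries at 12.07 TPM or less and at 90.45 or more, and the difference was 1.28 ± 0.98 (adjusted p = 0.731). With 1 library left out it ran from 0.39 (without control 3) to 2.08 (without TGF-β1 library 1), and without the 6 libraries rich in zeros it was -0.20. The knockout values were 11.35, 54.67, 50.3, 52.38 and 44.4 TPM in controls and 69.66, 28.82 and 40.86 with TGF-β1, with means of 42.6 ± 17.9 and 46.45 ± 20.99 TPM. Itga4 was at 19.9, 0.19, 1.93, 17.18 and 10.52 TPM in wild-type controls and 21.15, 11.48, 14.83 and 9.26 with TGF-β1. Its treated libraries lay within a narrower range than its controls, 2 of which were under 2 TPM, and the difference was 1.08 ± 1.02 (adjusted p = 0.784), or 0.45 without control 2. The knockout values were 22.01, 36.73, 3.81, 5.7 and 1.81 TPM in controls and 10.17, 11.59 and 7.17 with TGF-β1, again a narrower range in treated libraries, with means of 14.01 ± 15.02 and 9.64 ± 2.26 TPM.

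Itgb7, the gut homing partner of α4, was a gene of single libraries. It was at 69.42 TPM in wild-type control 3, at 24.11, 4.96 and 30.58 in knockout controls 3, 4 and 5 and at 49.8 in knockout TGF-β1 library 2. The other 12 libraries were at 0.32 or less, and all 4 wild-type TGF-β1 libraries were listed at 0. The wild-type difference of -1.23 ± 1.40 rests on control 3 and was -0.01 without it, and it was 0.66 with the cell cycle covariate. T, B and NK cell markers reached at most 1.97 TPM and mast cell markers 11.01 TPM in any library, and their part in the Itgb7 values was not tested.

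The same treatment was compared in libraries labelled knockout. Of the 10 members 0 were called (0.00823% of all genes), and 0 had an unadjusted p under 0.05 (5.93% of all genes). Groups did not overlap for 0 members and for 4.89% of all genes. The differences ran from -0.63 for Itgb7 to 1.54 for Itgal, with a median of 0.14 beside 0.07 over all genes. Whether the treatment effect differed between genotypes was tested directly. Again 0 members were called, as were 0.0% of all genes, and 0 had an unadjusted p under 0.05 (4.68% of all genes). The effect in knockout minus that in wild type was -1.85 ± 1.07 for Itgb3, -1.56 ± 1.20 for Itgb5, 0.63 ± 0.51 for Itgb2, 1.45 ± 1.96 for Itgal and -1.07 ± 1.45 for Itga6 (limma adjusted p of 0.997 or more for each). With 1 library left out these ran from -2.54 to -1.38 for Itgb3, -1.93 to -0.91 for Itgb5, 0.38 to 0.90 for Itgb2, 0.32 to 2.38 for Itgal and -1.88 to -0.18 for Itga6. With errors of this size the data show neither a difference between the genotypes nor its absence.

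Genotypes were compared within each treatment. In controls, knockout minus wild type, 0 members were called (0.148% of all genes), 0 had an unadjusted p under 0.05 (5.82%) and 0 had groups that did not overlap (1.06%). Itgb2 and Itgb1 differed least, with means of 386.6 and 368.2 TPM for Itgb2 and 125.5 and 132.1 for Itgb1 in wild type and knockout. The largest differences were 1.29 ± 1.32 for Itgb7 and 1.19 ± 0.93 for Itga6. Without wild-type control 3 they were 2.51 and 0.31, without wild-type control 1 that of Itga6 was 1.80, and without knockout control 5 that of Itgb7 was 0.67. Under TGF-β1 0 members were called (0.156% of all genes), 0 had an unadjusted p under 0.05 (5.25%) and 0 had groups that did not overlap (5.49%). There the differences were 1.89 ± 1.60 for Itgb7, 1.79 ± 1.51 for Itgal, -1.47 ± 0.82 for Itgb3 and -1.34 ± 0.92 for Itgb5, each a value that did not pass. That of Itgb7 rests on knockout TGF-β1 library 2 and was 0.0 without it. With 1 library left out that of Itgal ran from 0.66 (without wild-type TGF-β1 library 2) to 2.72 (without library 3), and that of Itgb3 from -2.17 to -1.01. The Itgb5 values of this comparison were 61.39 to 261.26 TPM in wild type and 37.28 to 68.74 in knockout, with 1 wild-type library inside the knockout range.

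Cell cycle transcripts were measured beside these genes. The mean log2(TPM + 1) of 20 cell cycle genes was 3.30, 7.03, 2.30, 6.13 and 7.13 in wild-type controls and 7.87, 7.48, 7.03 and 7.48 with TGF-β1. For the knockout it was 7.53, 5.14, 5.04, 4.83 and 5.11 in controls and 7.47, 8.01 and 7.59 with TGF-β1. Of the 20 genes 0 were called in wild type, beside 0.181% of all genes. Differences there were positive for 19, with a median of 2.75, beside 53.8% and 0.09 over all genes. The limma unadjusted p was under 0.05 for 9 of them in wild type (9.97% of all genes) and 17 in the averaged effect (10.8%). In the averaged effect Top2a, the DNA topoisomerase of dividing cells, had a difference of 2.59 ± 0.61 (limma adjusted p = 0.0760) and Cdk1, the mitotic kinase, 2.11 ± 0.59 (0.141). Ube2c, a ubiquitin-conjugating enzyme of mitotic exit, had 3.45 ± 1.24 (0.289), and Pcna, the sliding clamp of DNA replication, 0.10 ± 0.38 (0.961). With this mean as a covariate the wild-type difference was 1.46 for Itgb5 (limma unadjusted p = 0.142, adjusted p = 0.718), -0.41 for Itgb2 (0.314 and 0.832) and 2.29 for Itgb3 (0.0164 and 0.426). The unadjusted p of Itgb5 and Itgb2 was thus no longer under 0.05, while that of Itgb3 was. All 7 TGF-β1 libraries lay at a cell cycle mean of 7.03 or more, as did wild-type controls 2 and 5 and knockout control 1. Treatment and cell cycle therefore could not be told apart by this fit, and the part of cell cycle in the integrin values was not tested.

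**Figure D5:**
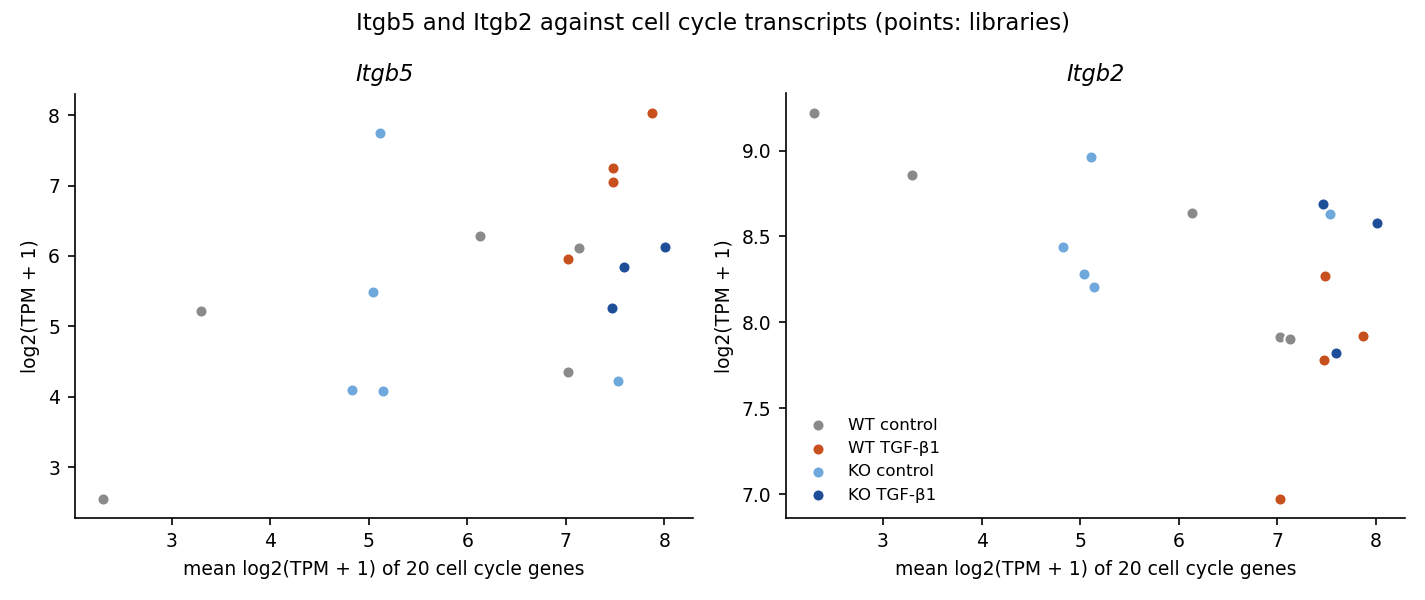
Itgb5 (left) and Itgb2 (right) as log2(TPM + 1) on the vertical axis against the mean log2(TPM + 1) of 20 cell cycle genes on the horizontal axis, 1 point per library, coloured by labelled group (WT, Smad3 wild type; KO, Smad3 knockout). All 7 TGF-β1 libraries lie at a cell cycle mean of 7.03 or more, together with wild-type controls 2 and 5 and knockout control 1, and wild-type control 3, at 2.30, has the lowest Itgb5 and the highest Itgb2.

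The genes that work with these integrins were read from lists, and 0 genes of any of these lists were called in any of the 6 comparisons. Integrins are switched on when talin and kindlin bind the β tail, and of 9 activator genes 5 were tested, 3 with positive and 2 with negative differences in wild type. Fermt3, the kindlin of blood cells, was at 116.1 ± 59.9 TPM in wild-type controls and 149.5 ± 63.6 with TGF-β1, and Tln1, talin, at 74.5 ± 38.2 and 51.2 ± 28.3. The small GTPase gene Rap1a was at 29.5 ± 16.4 and 35.8 ± 18.7 TPM. All 4 inhibitor genes were tested, 1 positive and 3 negative. The positive one was Sharpin, with a wild-type difference of 1.20 ± 0.57 (limma unadjusted p = 0.0476, adjusted p = 0.500). Flna, filamin A, which competes with talin, was at 375.5 ± 181.0 and 233.1 ± 157.3 TPM. Itgb1bp1, whose product ICAP-1 binds the β1 tail, had a wild-type difference of -0.59 ± 0.70. It was at 174.3 ± 29.6 TPM in knockout controls and at 132.84, 4.43 and 52.76 in treated ones (log2 -2.35 ± 0.76, adjusted p = 0.628), a difference of -1.03 without treated library 2 and -3.34 without treated library 1.

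Of 14 adaptor and kinase genes of adhesion sites 11 were tested, 6 positive and 5 negative in wild type. Ilk, integrin-linked kinase, was at 213.5 ± 105.3 TPM in wild-type controls and 222.7 ± 55.3 with TGF-β1, and Lims1, which encodes its partner PINCH-1, at 184.0 ± 81.7 and 187.4 ± 30.2. Parvg, the leukocyte parvin of the same complex, was at 77.86, 0.99, 46.99, 0.3 and 0.02 TPM in wild-type controls and 144.09, 116.53, 134.82 and 110.83 with TGF-β1. The treated libraries all exceeded the controls, 3 of which were under 1 TPM, and the difference was 4.33 ± 1.39 (unadjusted p = 0.00535, adjusted p = 0.269). Groups did not overlap for 2.79% of all tested genes, and the spread of Parvg within groups was at the 94.7 percentile. Actn4, the actin crosslinker α-actinin, was at 168.4 ± 76.7 and 217.3 ± 76.7 TPM.

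All 8 genes for membrane partners of integrins were tested, 4 positive and 4 negative in wild type. The tetraspanin gene Cd81 was at 316.9 ± 146.3 TPM in wild-type controls and 1199 ± 205.9 in treated ones (log2 2.06 ± 0.47, adjusted p = 0.0766), and the tetraspanin gene Cd9 at 1544 ± 420.6 and 1694 ± 331.2. Cd63 was at 2308 ± 428.2 and 2032 ± 317.1 TPM. Of 15 ligand genes 7 were tested, 4 positive and 3 negative. Spp1, osteopontin, was at 864.75 to 34314.75 TPM over the libraries. Mfge8, which encodes the bridge that αv integrins bind, was at 48.2 ± 41.8 TPM in wild-type controls and when treated at 144.3 ± 140.1 (adjusted p = 0.507). F11r, a junction molecule bound by αL with β2, was at 16.1 ± 16.7 and 117.8 ± 32.5 TPM (log2 3.96 ± 1.21, adjusted p = 0.233). Without the 6 libraries rich in zeros the F11r difference was 1.92. Of 6 genes for anchors of latent TGF-β, the cargo that αv integrins can open, 2 were tested, Nrros at 73.2 ± 46.5 and 84.9 ± 32.0 TPM and Ltbp1 at 8.30 ± 5.34 and 5.96 ± 4.595.

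Genes whose levels ordered the 17 libraries most like each abundant member were taken by Spearman's rho among 7308 genes, as a description. For Itgb5 these were Csk (rho 0.816), Mfge8 (0.792) and S1pr1 (0.789), with Pearson's r of 0.731, 0.537 and 0.607. Itgb2 was most like Prpf31 (0.806), Cfp (0.792) and Emilin2 (0.779), with r of 0.372, 0.571 and 0.76. Itgb1 was most like Rbm18 (0.846), Fis1 (0.792) and Wbp11 (0.779), Itgav most like Dtnb (0.777), Iqcb1 (0.752) and Thap7 (0.75), and Itga5 most like Ntan1 (0.775), Arhgap22 (0.767) and Clns1a (0.738). The highest of 7308 correlations over 17 libraries is high by selection, and libraries share their treatment and their make-up.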

How the data were processed

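Per the submitters' processing notes, the authors used FastQC, Trim Galore, RSEM and the mouse build mm9; no versions were found. The deposited table holds TPM for 37620 gene IDs in 17 libraries, with cDNA made by SMART-seq2 per the labels' protocols. Symbols for 32897 IDs came from the GENCODE vM21 annotation (GRCm38). TPM keeps no depth, so no counting interval could be given. The median share of moderately expressed genes (mean TPM 10 to 50) listed at 0 was 8.78%. Libraries were treated as replicate libraries because this median did not pass 10%. That limit is a working rule, and 6 of the 17 libraries lay over it, within a range of 4.08% to 14.84%. The share therefore cannot settle whether a library holds 1 cell or many. Every n, SE and p given here depends on that choice.

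From the TPM, log2(TPM + 1) was computed, which understates differences of low genes. A gene entered the fit with TPM 1 or more in any 3 libraries. The fit used limma 3.58.1 (R 4.3.3, lmFit and eBayes with trend) over all 4 groups at once, with contrasts for 6 comparisons, Benjamini-Hochberg adjustment over 12158 genes and calls at an adjusted p under 0.05. The fit was tried on simulated data with changes planted only in abundant genes of small spread. That trial does not cover scarcer or more variable members such as Itgb3, Itgb5 and Itgb7. The members and lists were chosen with earlier results of these data known. From each other list the text names called genes, the 2 with the highest mean TPM and the 2 with the lowest p of the averaged effect, and for members with a mean of TPM 50 or more the 3 genes most like them (mean TPM 10 or more). Itgb6, Itgb8, Itga2b, Sharpin and the cell type markers named singly fall outside this rule and were chosen after their values were seen. Alternatives were other pseudocounts (0.1 and 10), filters, scalings, covariates, a replicate block and leaving out libraries.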

Additional observations from a re-analysis of the deposited data

Results flagged for a closer look

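On the scale of log2(TPM + 1), 30 gene and group combinations with 4 or 5 libraries were examined. In 3 of them, 1 library stood apart from the others by more than Dixon's 95% limit. Chance gives about 1 in 20 for normally distributed values, which values near 0 are not. The 30 include Itgb7 with TGF-β1 in wild type, listed at 0 in all libraries and so without a range. The gap to the nearest library is given as a share of the group's range. Itgb7 was at 69.42 TPM in wild-type control 3, a gap of 0.995 in log2(TPM + 1) and 1.0 in TPM. Itgb3 was at 1.76 TPM in the same library, a gap of 0.98 in log2 and 0.989 in TPM. For both genes the other 4 wild-type controls were at 0.03 TPM or less, so any library with expression stands apart. Itga6 was at 11.35 TPM in knockout control 1, below the other 4, a gap of 0.865 in log2 and 0.763 in TPM. On the TPM scale, tried after seeing the data, 4 combinations passed the limit, the further one being Itgb5 at 213.18 TPM in knockout control 5, a gap of 0.858.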

How the results depend on the processing

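No member was called in any of the 6 comparisons under any alternative (0 of 1314 fitted values, lowest adjusted p 0.229). Of 60 member differences 39 lay within 1 standard error of 0, and 30 changed sign under at least 1 alternative, 29 of them from within 1 standard error. The differences of Itgb5, Itgb3, Itgb2, Itgb1 and Itga4 in wild type kept their sign throughout. With the cell cycle mean as a covariate the wild-type difference was 0.16 for Itga5 and 0.66 for Itgb7, the knockout difference 0.21 for Itgb2, 0.41 for Itgb3, -0.06 for Itgb5 and 1.16 for Itgb7, and the averaged one 0.03 for Itga5 and 0.91 for Itgb7. Without the 6 libraries rich in zeros the wild-type difference was -0.2 for Itga6 and -0.64 for Itgal, the knockout difference 0.05 for Itgb3, the averaged one 0.03 for Itga5, and the difference of effects 0.83 for Itga6. Itgal in wild type was -0.12 with pseudocount 0.1. With 1 library left out, wild-type differences ran from -0.41 to 0.27 for Itga5, -0.84 to 1.22 for Itgal and -0.19 to 0.46 for Itgav, knockout ones from -0.3 to 0.13 for Itgb2, -0.67 to 0.27 for Itgb3 and -2.52 to 0.31 for Itgb7, and averaged ones from -0.36 to 0.04 for Itga5 and -0.02 to 0.32 for Itgav. The cause of these sign changes was not tested. Itgb3 was not tested with a filter of TPM 5. Other scalings moved the median of all genes in single libraries by -0.138 to 0.223 on the log2 scale.

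Over all tested genes, libraries of the same number did not deviate together (median r -0.01 over 22 pairs, none over 0.1). Many of these genes varied widely within groups, so this r cannot exclude a shared animal or batch. Whether the numbers pair libraries is not known. With a replicate block the wild-type difference was 2.65 for Itgb5 (unadjusted p = 0.00237, adjusted p = 0.238), 0.06 for Itga5 and -0.14 for Itgal, and 0 members were called. The averaged effect of Itgb5 was 1.94 with that block (limma unadjusted p = 0.00326, adjusted p = 0.251).

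For 7 genes outside the members and for the difference of effects of Itgb2 the same alternatives were chosen after seeing the data. Itgam in wild type was 0.11 without the 6 libraries rich in zeros, 0.16 with a replicate block, and -0.48 to 0.1 with 1 library left out. The averaged call of Csf1r by limma ended with no filter (adjusted p = 0.104), upper-quartile scaling (0.0604), the cell cycle covariate (0.0624) and a replicate block (0.130). Cd81 in wild type was called with quantile normalization alone (log2 2.08, adjusted p = 0.0497).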
